A study of Mus musculus with 6 samples.

Results

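The 10 genes of the Nodal pathway described here are the ligands Nodal and Gdf3, the co-receptor Tdgf1, the secreted inhibitors Lefty1, Lefty2 and Cer1, the receptors Acvr2b, Tgfbr1 and Acvr1c, and the intracellular inhibitor Smad7. They were taken by name: each of the 10 has exactly 1 row (a probe set of the array) annotated with its symbol alone, out of 19938 genes with such a row. The 6 arrays measured mRNA of A3-1, a mouse embryonic stem (ES) cell line grown in serum and LIF, a cytokine that holds mouse ES cells in the undifferentiated state. In siLin28a cells Lin28a was targeted by 1 small interfering RNA (siRNA) for 48 h, siGFP cells received 1 control siRNA against green fluorescent protein for 48 h, and untreated cells received no siRNA, with 2 arrays in each group. The labels give no time for untreated cells, and no genetic change for any group. Each target was hit by a single duplex, no group with delivery reagent alone is analysed here, and separate cultures behind the 2 arrays of a group are not stated in the labels. The spread that p-values rest on here is thus that of these arrays alone, and it may be technical. Values are log2 expression as deposited, in steps of 0.1, so 1 unit is a doubling on the linear scale. The number of arrays limits the precision.

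Nodal and its relative Gdf3 are secreted ligands of the TGF-beta family. They bind activin receptors together with the co-receptor Tdgf1 (Cripto), and the receptors then phosphorylate SMAD2 and SMAD3, which enter the nucleus with SMAD4 and act with partners such as FOXH1. The pathway induces its own brakes: Lefty1 and Lefty2 are secreted antagonists, and Smad7 blocks the receptors from inside the cell. In the mouse embryo the pathway maintains the epiblast after implantation and patterns mesoderm and endoderm, and ES cells in culture express several of its genes.

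The duplex that defines the siLin28a group is shown first, since every comparison with that group rests on it. The strands are written without their dTdT overhangs, each is the exact reverse complement of the other over 19 bases, and the capitals mark bases 2 to 8 of the second strand, the stretch through which a loaded strand first pairs with a transcript.
siLin28a first strand: gcagaagcgaagauccaaa
siLin28a second strand: uUUGGAUCuucgcuucugc

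Lin28a itself read 7.4 on both siLin28a arrays, against 9.1 and 9.4 on the siGFP arrays and likewise 9.1 and 9.4 on the untreated arrays. The log2 fold change was −1.85 (SE 0.16, n = 2 arrays per group) against either group, with limma adjusted p 0.512 against siGFP and 0.171 against untreated cells. The fit used limma on all 6 arrays, with Benjamini-Hochberg adjustment over the 23410 rows that carry a gene name and a threshold of 0.05. In each of the 3 comparisons 0 rows passed (0.0%). At an unadjusted p under 0.05 there were 949 rows for siLin28a against siGFP, 825 for siGFP against untreated and 1508 for siLin28a against untreated. Least squares without limma's shared prior also passed 0 rows in each. No gene below is therefore called as changed, and all differences are given as values with their errors. The 8 ES cell markers, Pou5f1, Sox2 and Nanog among them, lay above the array median on all arrays. Of the 8 primitive and visceral endoderm markers, 7 lay at or below it on all arrays, the exception being Gata4, and of the 6 feeder fibroblast markers 4 lay above it on all arrays.

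The ligands had the narrowest ranges of group means of the 10 genes, 0.10 for Nodal and 0.15 for Gdf3. Nodal read 8.4 and 8.7 in siLin28a cells, 8.4 and 8.7 in siGFP cells, and 8.4 and 8.5 in untreated cells. The 3 groups overlapped entirely. The log2 fold change of Nodal was 0.00 between siLin28a and siGFP (95% interval −0.40 to 0.40, limma adjusted p 1.0), so a shift of up to 0.40 in either direction lies within the error. Gdf3, a ligand that also binds and inhibits BMPs, read 10 and 10.1 in siLin28a cells, 10.1 and 10.2 in siGFP cells, and 9.9 and 10.1 in untreated cells. Its groups overlapped too, and the difference between siLin28a and siGFP was −0.10 (95% interval −0.41 to 0.21, limma adjusted p 0.953).

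Tdgf1 showed little spread within groups and a small step between them. It read 11.8 on both siLin28a arrays, 12 and 12.2 on the siGFP arrays, and 11.9 on both untreated arrays. No siLin28a value reached a siGFP or an untreated value. The group means ran from siLin28a through untreated to siGFP. The log2 fold change was −0.30 (SE 0.12, unadjusted p 0.0486, limma adjusted p 0.953) for siLin28a against siGFP, 0.20 for siGFP against untreated and −0.10 for siLin28a against untreated. Among the 641 rows with a mean of at least 11, whose median log2 fold change was −0.05, 19 rows (2.96%) had a value of −0.30 or below for siLin28a against siGFP. Set directly against untreated cells, Tdgf1 in siLin28a cells differed by less than its SE of 0.12.

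**Figure D1:**
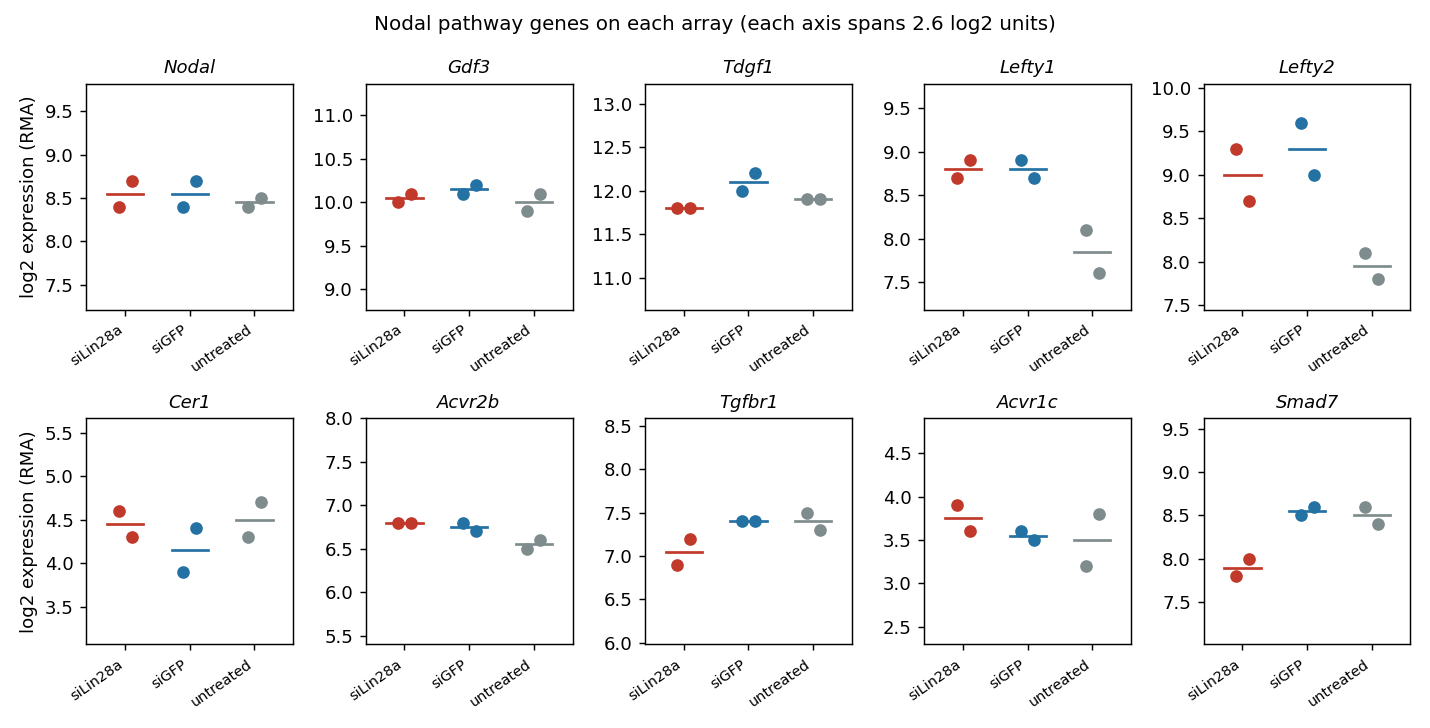
Log2 expression (RMA, vertical axes) of the 10 Nodal pathway genes on each array in siLin28a, siGFP and untreated cells; points are arrays and bars are means of 2 arrays. Lefty1 and Lefty2 lie lower on both untreated arrays than on any siRNA array, Smad7 lies lower on both siLin28a arrays than on any other, and Nodal overlaps in all 3 groups.

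The secreted inhibitors Lefty1 and Lefty2 separated both siRNA groups from untreated cells. Lefty1 read 8.7 and 8.9 in siLin28a cells, 8.9 and 8.7 in siGFP cells, and 8.1 and 7.6 in untreated cells. The siLin28a and siGFP arrays held the same pair of values, and both lay above every untreated array. Against untreated cells the log2 fold change was 0.95 (SE 0.20, 1.93-fold) in siLin28a cells and 0.95 in siGFP cells. The unadjusted p was 0.00262 in each, with limma adjusted p 0.558 and 0.961.

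Lefty2 read 9.3 and 8.7 in siLin28a cells, 9.6 and 9.0 in siGFP cells, and 8.1 and 7.8 in untreated cells. Again both siRNA groups lay above both untreated arrays, while siLin28a and siGFP overlapped. Against untreated cells the log2 fold change was 1.05 (SE 0.28, 2.07-fold, limma adjusted p 0.643) in siLin28a cells and 1.35 (SE 0.28, 2.55-fold, limma adjusted p 0.961) in siGFP cells. Among the 4880 rows with a mean between 7 and 9, Lefty2 was the 1 row with a value of 1.35 or more for siGFP against untreated, and 8 rows, Lefty1 included, had 0.95 or more.

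Between the siRNA groups, Lefty1 had a log2 fold change of 0.00 (95% interval −0.48 to 0.48) and Lefty2 of −0.30 (95% interval −0.97 to 0.37, limma adjusted p 0.953). For Lefty1 the sign depended on scaling, with −0.05 after the arrays were shifted to the same median and 0.09 after cyclic loess. For Lefty2, replicate 1 was 0.6 above replicate 2 in both siRNA groups, and leaving out single arrays gave values between −0.60 and 0.00. The comparisons with untreated cells share the untreated arrays, so the 2 siRNA groups are not separate observations of this difference. Lefty1 and Lefty2 are close paralogs. Whether probes of one row also bind the other transcript is not given in the sources used here.

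Cer1, a secreted inhibitor of Nodal, BMP and Wnt ligands made by endoderm of the embryo, stood apart from the Leftys. It read 4.6 and 4.3 in siLin28a cells, 3.9 and 4.4 in siGFP cells, and 4.3 and 4.7 in untreated cells. All of these lie below the array medians of 5.2 to 5.3, and the groups overlapped. Cer1 had a log2 fold change of 0.30 (SE 0.23) for siLin28a against siGFP and −0.35 (SE 0.23) for siGFP against untreated, both resting on the siGFP arrays, and −0.05 for siLin28a against untreated. It was 0.05 without siGFP replicate 1 and 0.55 without siGFP replicate 2 in the comparison of siLin28a with siGFP.

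**Figure D2:**
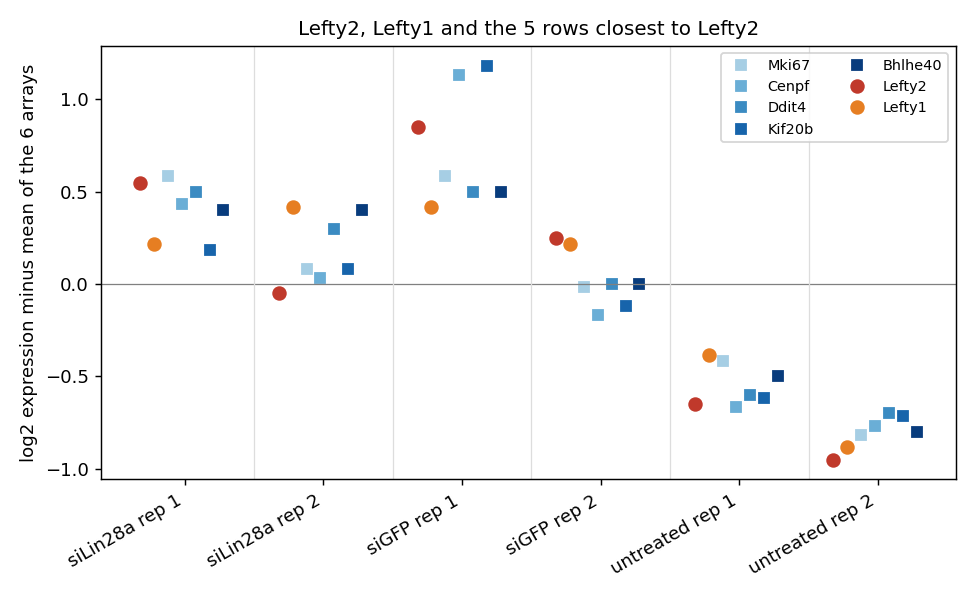
Log2 expression minus each row's mean over the 6 arrays (vertical axis) for Lefty2, Lefty1 and the 5 rows whose centred values were closest to Lefty2, by array. All 7 genes are below 0 on both untreated arrays and above 0 on siLin28a replicate 1 and siGFP replicate 1.

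Lefty2 had the widest range of group means of the 10 genes, 1.35. The 5 rows closest to it among 17506 candidate genes, by the root mean square difference of values centred on each row's mean over the 6 arrays, were Mki67 (0.197), Cenpf (0.227), Ddit4 (0.25), Kif20b (0.275) and Bhlhe40 (0.275). Mki67 marks proliferating cells, and Cenpf and Kif20b act in mitosis. Ddit4 inhibits mTOR signalling, and Bhlhe40 is a transcription factor. Mki67 read 8.4 and 7.9 in siLin28a cells, 8.4 and 7.8 in siGFP cells, and 7.4 and 7.0 in untreated cells. The siGFP arrays disagreed more for Cenpf, at 8.1 and 6.8, and for Kif20b, at 7.9 and 6.6. These 5 rows are the closest of 17506 over only 6 arrays, and a process shared with Lefty2 was not tested. Lefty1, at 0.314, was the nearest of the other members, and the remaining 8 lay between 0.544 and 0.803.

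Smad7, the inhibitory SMAD that recruits ubiquitin ligases to the receptors, had the largest difference in size between siLin28a and siGFP cells of the 10 genes. It read 7.8 and 8.0 in siLin28a cells, 8.5 and 8.6 in siGFP cells, and 8.6 and 8.4 in untreated cells. Both siLin28a arrays lay below all 4 other arrays, and siGFP and untreated overlapped. The log2 fold change was −0.65 (SE 0.14, 1.57-fold lower, unadjusted p 0.00303, limma adjusted p 0.953) against siGFP and −0.60 (SE 0.14, 1.52-fold lower, limma adjusted p 0.597) against untreated cells. Leaving out single arrays gave −0.75 to −0.55 against siGFP. Bright rows as a whole read slightly lower in siLin28a cells: among the 4880 rows with a mean between 7 and 9 the median log2 fold change against siGFP was −0.10, and 34 of them (0.697%) lay at −0.65 or below. Against untreated cells, 129 of these rows (2.64%) lay at −0.60 or below. After a further quantile normalization the Smad7 value was −0.57.

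The mean levels of 2 sets of cell state markers also separated the siLin28a arrays from the siGFP arrays. The 8 ES cell markers averaged 10.31 and 10.44 on the siLin28a arrays and 10.69 and 10.89 on the siGFP arrays, with 8 of 8 lower in mean (49.6% of all rows) and 5 of 8 lower without overlap (11.8% of all rows). These markers are bright, and bright rows in general read lower in siLin28a cells. The median log2 fold change was −0.32 for the 8 markers. It was −0.10 for rows with a mean of 7 to 9, −0.10 for 9 to 11 and −0.05 for 11 to 14. The 6 primed epiblast markers, Dnmt3b among them, averaged 7.95 and 7.78 on the siLin28a arrays and 7.32 and 7 on the siGFP arrays, with 6 of 6 higher in mean (38.3% of all rows) and 5 of 6 higher without overlap (9.03% of all rows). Otx2 was the one whose groups overlapped, at 9.2 and 8.9 in siLin28a cells and 9.3 and 8.5 in siGFP cells. Both marker lists were chosen with earlier results of these data known. The part of both sets in the Nodal pathway values was not tested. In bulk RNA, fewer cells of a type and less RNA per cell cannot be told apart.

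The receptors gave small differences in opposite directions. Tgfbr1 (ALK5), the type I receptor of TGF-beta, read 6.9 and 7.2 in siLin28a cells, 7.4 on both siGFP arrays, and 7.5 and 7.3 in untreated cells. Both siLin28a arrays lay below all others, by 0.1 at the nearest. Its log2 fold change was −0.35 against siGFP and against untreated cells (SE 0.15, unadjusted p 0.0561, limma adjusted p 0.953 and 0.776), and between −0.50 and −0.20 without single arrays. Among the 4880 rows with a mean between 7 and 9, 8.61% lay at −0.35 or below against siGFP and 12.9% against untreated cells. Acvr2b, a type II receptor of activin and Nodal, read 6.8 on both siLin28a arrays, 6.8 and 6.7 in siGFP cells, and 6.5 and 6.6 in untreated cells. Here both siRNA groups lay above the untreated arrays, as for the Leftys but by less: the log2 fold change against untreated cells was 0.25 in siLin28a cells and 0.20 in siGFP cells (SE 0.12, limma adjusted p 0.776 and 0.961). Acvr1c (ALK7), a type I receptor of Nodal, read 3.9 and 3.6 in siLin28a cells, 3.6 and 3.5 in siGFP cells, and 3.2 and 3.8 in untreated cells. These values lie below the array medians and the groups overlapped.

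**Figure D3:**
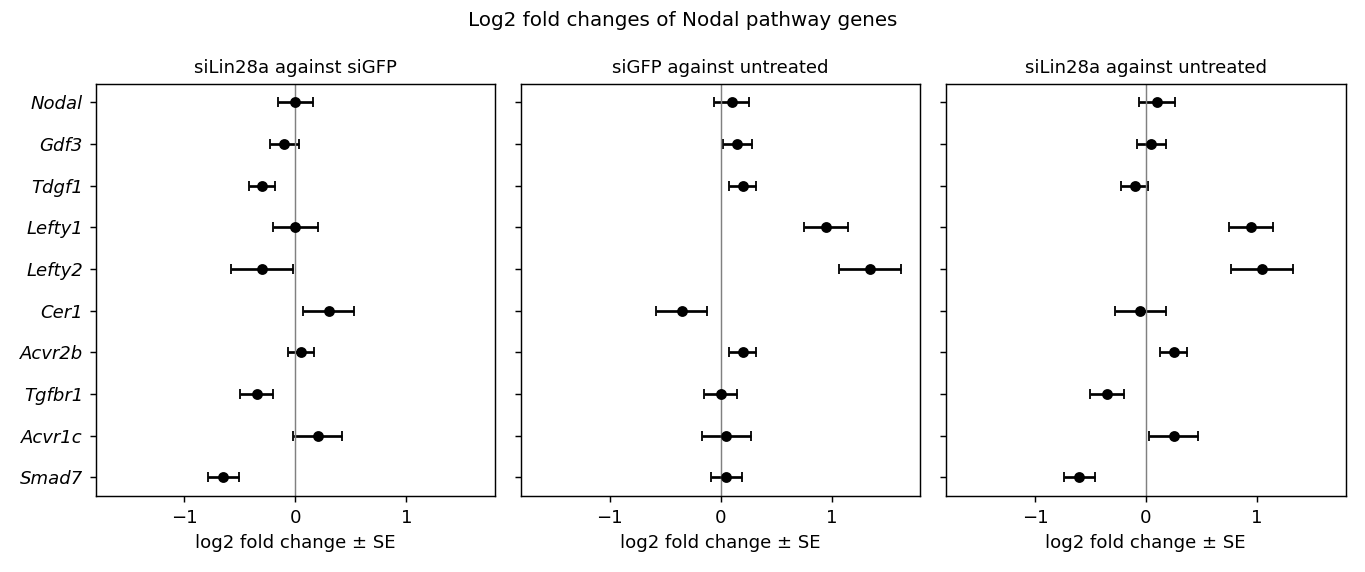
Log2 fold change with its moderated standard error (horizontal axes) of the 10 genes in the 3 comparisons, which share arrays. Smad7 stands at −0.65 and −0.60 in the comparisons with siLin28a cells and at 0.05 between siGFP and untreated, whereas Lefty1 and Lefty2 stand at 0.95 and 1.35 between siGFP and untreated.

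Counted over the 10 genes, the siLin28a arrays lay wholly below the siGFP arrays for 3 (Smad7, Tgfbr1 and Tdgf1) and wholly above for 0, where 11.8% of all tested rows lay wholly below and 9.03% wholly above. The median log2 fold change was −0.05 over the 10 genes and 0.00 over all rows. The siGFP arrays lay wholly above the untreated arrays for 4 (Lefty1, Lefty2, Tdgf1 and Acvr2b) and wholly below for 0, where all rows gave 9.22% and 8.46%, with a median of 0.12 over the 10 genes and 0.00 over all rows. The siLin28a arrays lay wholly above the untreated arrays for 3 (Lefty1, Lefty2 and Acvr2b) and wholly below for 3 (Smad7, Tgfbr1 and Tdgf1), where all rows gave 11.1% and 12.6%. An unadjusted p under 0.05 was reached by 2 of 10 genes lower in siLin28a than in siGFP cells (Smad7 and Tdgf1, all rows 2.26%) and by 0 higher (all rows 1.79%). It was reached by 2 of 10 higher in siGFP than in untreated cells (Lefty1 and Lefty2, all rows 2.19%) and by 0 lower (all rows 1.33%). Against untreated cells, siLin28a cells had 2 of 10 higher (Lefty1 and Lefty2, all rows 2.89%) and 1 lower (Smad7, all rows 3.55%). The shares over all rows take no account of brightness. Among rows with a mean of 7 to 9, as for Smad7, 3.73% were lower in siLin28a than in siGFP cells at that limma unadjusted p. Against untreated cells 7.15% of them were lower. Among rows of 11 to 14, as for Tdgf1, the shares were 0.468% and 0.156%. With 10 genes picked for the pathway all these shares are descriptions.

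**Figure D4:**
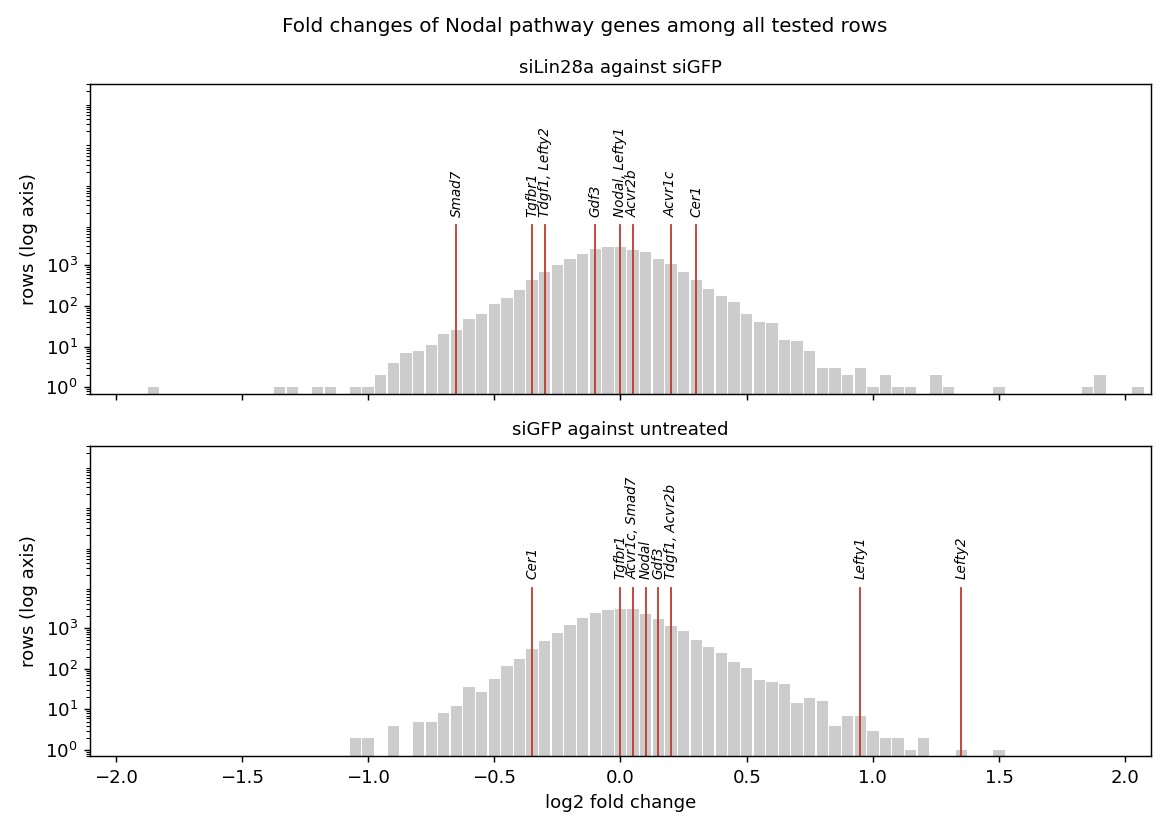
Number of the 23410 tested rows (vertical log axis) by log2 fold change (horizontal axis), with the 10 genes marked by red lines, for siLin28a against siGFP (top) and siGFP against untreated (bottom). Smad7 at −0.65 lies in the lower tail of the top panel, Lefty1 at 0.95 and Lefty2 at 1.35 in the upper tail of the bottom panel, and the other members within the bulk of rows.

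The sequences upstream of the start are shown for the 2 genes with a window in the table that lay wholly lower in siLin28a cells, Tdgf1 and Tgfbr1, and for Nodal, which overlapped in all groups. They are the 250 bases before the annotated start, from RefSeq on GRCm38.p6, and capitals mark CAGAC or its complement GTCTG, a short element bound by SMAD3 and SMAD4.
Tdgf1 (chr9:110946159-110946408, minus strand): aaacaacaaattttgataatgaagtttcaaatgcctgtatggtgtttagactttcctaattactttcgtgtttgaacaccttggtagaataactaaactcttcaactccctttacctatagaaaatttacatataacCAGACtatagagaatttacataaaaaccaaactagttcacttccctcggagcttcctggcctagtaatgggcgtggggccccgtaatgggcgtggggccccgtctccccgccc
Tgfbr1 (chr4:47352972-47353221, plus strand): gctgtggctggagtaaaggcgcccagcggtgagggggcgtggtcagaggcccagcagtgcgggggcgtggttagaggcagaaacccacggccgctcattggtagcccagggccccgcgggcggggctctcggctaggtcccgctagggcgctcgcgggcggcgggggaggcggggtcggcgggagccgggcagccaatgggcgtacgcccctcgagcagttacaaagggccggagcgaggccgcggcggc
Nodal (chr10:61417722-61417971, plus strand): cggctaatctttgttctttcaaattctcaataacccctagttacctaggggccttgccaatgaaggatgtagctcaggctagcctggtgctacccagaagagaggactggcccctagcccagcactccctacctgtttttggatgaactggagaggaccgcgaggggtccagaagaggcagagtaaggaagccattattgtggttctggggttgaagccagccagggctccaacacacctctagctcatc

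Windows were used for 6 of the 10 genes, 8 windows in all since Tgfbr1 and Acvr1c have 2 annotated starts each. No window was used for Lefty1, Lefty2, Gdf3 or Smad7, so the motif counts do not cover these genes. On either strand, CAGAC occurred in 4 of the 8 windows (Tdgf1, Cer1, Acvr2b and the downstream start of Tgfbr1) and in 42.2% of all 32851 windows of this length. The palindrome GTCTAGAC, the full SMAD box, occurred in 0 of 8 windows and in 0.167% of all windows. AATNCACA, the FOXH1 motif, occurred in 0 of 8 and in 3.18% of all windows. Neither longer motif contains CAGAC or GTCTG, and a match describes letters only.

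Other ligands and regulators of the TGF-beta family were measured for 16 genes. In siLin28a against siGFP 9 of 16 were higher, 6 lower and 1 equal (median 0.05), with 0 past the threshold. In siGFP against untreated 3 were higher, 12 lower and 1 equal (median −0.12, all rows 0.00, with 43.1% of all rows lower), with 0 past the threshold. Inhbb, a subunit of activin B and inhibin B, read 5.7 and 6.4 in siLin28a cells, 5.8 and 7.7 in siGFP cells, and 7.7 and 7.6 in untreated cells. Its siGFP arrays disagreed by 1.9, and its log2 fold change of −0.70 between siLin28a and siGFP became 0.25 without siGFP replicate 2 and −1.65 without siGFP replicate 1. Between siGFP and untreated it was −0.90, and 0.05 without siGFP replicate 1. Inhba, the subunit of activin A, read 4.7 on both siLin28a arrays, against 4.1 and 4.3 in siGFP cells, a log2 fold change of 0.50 (SE 0.13) at a level below the array medians. The inhibin alpha gene Inha had 0.45 for siLin28a against siGFP and −0.65 for siGFP against untreated (SE 0.18), and Tgfb3, a TGF-beta ligand, had −0.45 (SE 0.19) in the second. Inha and Tgfb3 also read below the array medians on all arrays.

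Among 12 genes of ligand processing and of regulation at the membrane, 4 were higher, 5 lower and 3 equal between siLin28a and siGFP. Between siGFP and untreated 8 were higher, 3 lower and 1 equal (44.4% of all rows higher). In both comparisons 0 passed the threshold. Pcsk6 (PACE4), a convertase that cleaves the Nodal and Lefty precursors, read 7.4 on both siLin28a arrays, 8.1 and 7.9 in siGFP cells, and 7.7 and 7.6 in untreated cells. Its siLin28a arrays lay below all others and its siGFP arrays above all others. Pcsk6 had a log2 fold change of −0.60 (SE 0.13, unadjusted p 0.00284, limma adjusted p 0.953) for siLin28a against siGFP and 0.35 (SE 0.13) for siGFP against untreated. Furin, another convertase, had 0.20 for siGFP against untreated. Eng (endoglin), a TGF-beta co-receptor, read 7.2 and 7.1 in siLin28a cells, 7.2 and 7.1 in siGFP cells, and 6.6 and 6.7 in untreated cells. Both siRNA groups thus lay above untreated cells, with a log2 fold change of 0.50 (SE 0.12) in siGFP cells. Tmem147, a partner of the nicalin complex, and Tgfbr3 (betaglycan), a co-receptor, had 0.20 and −0.15 for siLin28a against siGFP.

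The 9 other receptors had 3 higher, 5 lower and 1 equal between siLin28a and siGFP (median −0.10) and 4 higher and 5 lower between siGFP and untreated (median −0.15), with 0 past the threshold. Acvr2a, the second type II activin receptor, read 6.2 and 6.3 in siLin28a cells, 6.6 and 6.4 in siGFP cells, and 6.9 and 6.6 in untreated cells. Its log2 fold change was −0.25 (SE 0.15) for siLin28a against siGFP and also for siGFP against untreated, opposite in sign to that of Acvr2b in siGFP against untreated cells. The BMP receptor Bmpr2 had −0.25 for siLin28a against siGFP, and the BMP receptor Bmpr1b had −0.25 for siGFP against untreated. Bmpr1b read below the array medians on all arrays. Acvrl1 (ALK1) had 0.25 for siLin28a against siGFP and −0.20 for siGFP against untreated.

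**Figure D5:**
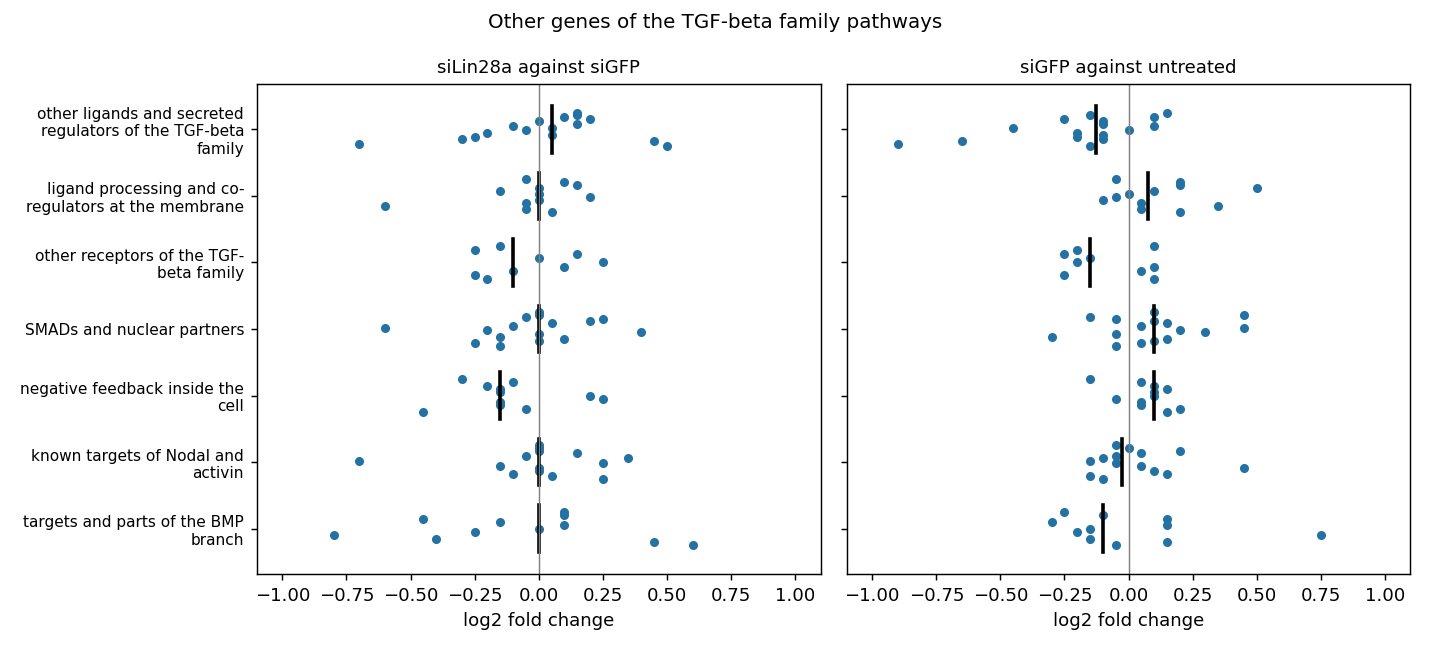
Log2 fold change (horizontal axes) of each measured gene of 7 lists of TGF-beta family pathway genes for siLin28a against siGFP (left) and siGFP against untreated (right); points are genes and black bars are list medians. Medians lie between −0.15 and 0.10, and single genes such as Inhbb, Pcsk6, Zfyve9, Nanog and Id4 lie farther out.

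Of 16 SMADs and nuclear partners, 5 were higher, 7 lower and 4 equal between siLin28a and siGFP. Between siGFP and untreated 11 were higher and 5 lower (44.4% of all rows higher). In both comparisons 0 passed the threshold. Zfyve9 (SARA), the endosomal anchor that presents SMAD2 and SMAD3 to the receptors, read 6.2 on both siLin28a arrays, 6.8 on both siGFP arrays, and 6.5 and 6.2 in untreated cells. The siGFP arrays were the high ones, with log2 fold changes of −0.60 (SE 0.14) for siLin28a against siGFP and 0.45 (SE 0.14) for siGFP against untreated. Foxh1, the DNA-binding partner of SMAD2 and SMAD3, read 7.2 on both siLin28a arrays, 7.0 and 6.6 in siGFP cells, and 6.4 and 6.6 in untreated cells. Its siLin28a arrays lay above all others, with a log2 fold change of 0.40 (SE 0.17, limma adjusted p 0.953) against siGFP. Smad3 had −0.25 in the same comparison, and Smad5, a BMP SMAD, and Eomes, a T-box factor, had −0.30 and 0.45 for siGFP against untreated.

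Of 11 intracellular regulators other than Smad7, listed under negative feedback, 2 were higher and 9 lower between siLin28a and siGFP. Membership of the list does not show that a gene acts as feedback in these cells. Their median was −0.15 (all rows 0.00, with 49.6% of all rows lower). Apart from Smad6, every gene of this list averaged above 7, and bright rows in general read lower in siLin28a cells. At that brightness the median of all rows was −0.10, both from 7 to 9 and from 9 to 11. The list median was therefore close to that of similarly bright rows. Between siGFP and untreated 9 were higher and 2 lower (median 0.10, all rows 0.00, with 44.4% of all rows higher). Only 1 of the 11 was higher without overlap there (9.22% of all rows). In both comparisons 0 passed the threshold. Smad6, the inhibitory SMAD of the BMP branch, read 5.8 and 6.1 in siLin28a cells, 6.2 and 6.6 in siGFP cells, and 6.4 and 6.1 in untreated cells. Its log2 fold change between siLin28a and siGFP was −0.45 (SE 0.20). Skil (SnoN), a nuclear repressor of SMADs, had 0.25 and Usp9x, a deubiquitinase of SMAD4, −0.30 in that comparison. Between siGFP and untreated, Smurf1, a ubiquitin ligase, had 0.20, Nedd4l 0.15 and Smad6 0.15.

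Known targets of Nodal and activin were measured for 14 of 18 listed genes. They had 5 higher, 4 lower and 5 equal between siLin28a and siGFP, and 6 higher, 7 lower and 1 equal between siGFP and untreated (medians 0.00 and −0.03), with 0 past the threshold. Nanog, a pluripotency factor, had −0.70 (SE 0.19), the epiblast growth factor Fgf5 0.35 (SE 0.18) and the organiser gene Gsc 0.25 (SE 0.14) for siLin28a against siGFP. Fgf5 read 5.5 and 5.0 in siLin28a cells and 4.9 on both siGFP arrays, near the array medians. For siGFP against untreated, where the Leftys were higher, Eomes had 0.45, Cdkn2b 0.20 and Foxa2 −0.15. Eomes read 5.9 and 5.5 in siGFP cells and 5.5 and 5.0 in untreated cells, which overlap. Foxa2 read at or below the array median on all arrays.

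In the BMP branch, which uses other SMADs and was listed for contrast, 5 of 11 were higher, 5 lower and 1 equal between siLin28a and siGFP, and 4 higher and 7 lower between siGFP and untreated, with 0 past the threshold. The ID genes, inhibitors of basic helix-loop-helix factors, did not go one way. Id1 read 7.2 and 7.4 in siLin28a cells and 6.4 and 7.0 in siGFP cells, and Id2 read 7.1 and 7.4 in siLin28a cells and 6.8 on both siGFP arrays, log2 fold changes of 0.60 (SE 0.21) and 0.45 (SE 0.14). Id4 read 6.5 and 6.4 in siLin28a cells, 7.4 and 7.1 in siGFP cells, and 6.7 and 6.3 in untreated cells. It was high on both siGFP arrays, with −0.80 (SE 0.18) for siLin28a against siGFP and 0.75 (SE 0.18) for siGFP against untreated. Msx2, a homeobox target of BMP, had −0.25 in the second comparison and read at or below the array median on all arrays.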

How the data were processed

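Messenger RNA was hybridised to 6 Affymetrix arrays. Per the submitters' processing notes, the authors made the deposited log2 values with RMA in Affymetrix Expression Console. RMA subtracts background, gives all arrays the same quantiles and then summarises each probe set. The summarised values still differed slightly between arrays. Their upper quartiles were 7.0 and 7.1 on the siLin28a arrays and 7.2 on each siGFP and untreated array. No version or genome build is given in the sources used here. The table holds 35556 rows. GEO's platform annotation named a gene for 23410, and 21789 had 1 symbol. All 10 members matched a RefSeq gene by Entrez number.

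Groups were taken from the sample titles. The two-sided test of limma 3.58.1 under R 4.3.3 (eBayes without trend) was fitted to all named rows of the 6 arrays in 3 groups (3 residual and 3.19 prior degrees of freedom), with no filter on dim rows. It was tested on simulated data. Errors are moderated standard errors. No permutation test was run, since 2 arrays against 2 allow no exact p below 0.333. Means are of 2 arrays, and a gene with several rows was represented by its brightest. Of each gene list, the 3 genes farthest from a log2 fold change of 0 were named for siLin28a against siGFP and for siGFP against untreated, with ties settled by the order in which the list gives its genes; other marker genes are examples chosen after their values were seen. The members and lists were chosen with earlier results of these data known. Some genes, such as Skil and Smad6, are in several lists, so the counts of the lists are not separate. Alternatives covered single arrays left out, the replicate number as a block, scaling, dim rows, the variance prior, and the rows and arrays fitted.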

Additional observations from a re-analysis of the deposited data

How the results depend on the processing

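The count of rows past the threshold was 0 in all 3 comparisons with each single array left out (0 to 0), with replicate number as a block, and with all other alternatives except these: siLin28a against siGFP gave 1 row after cyclic loess and 1 with a robust prior, and siLin28a against untreated gave 5 and 7. The 1 row was Lin28a, whose log2 fold change was −1.76 after cyclic loess and −1.85 with a robust prior against siGFP, and −1.75 and −1.85 against untreated, all past the threshold. In the replicate block fit the number of rows past the threshold was 0 and the unadjusted count for siLin28a against siGFP was 1350. Differences between replicate 1 and 2 correlated over rows at 0.357 between siLin28a and siGFP, 0.154 between siGFP and untreated, and −0.035 between siLin28a and untreated; the labels give only the numbers. No member passed under any alternative run (lowest adjusted p 0.235). Of 474 alternative values of members, 8 turned sign, all with an array left out, and 3 of 585 did for listed genes. Values that were 0.00 in the main fit, as for Lefty1 between the siRNA groups, were not counted as turning. Many alternatives leave a fold change unchanged, such as the replicate block, the variance prior and an array left out of a group not compared. These counts therefore say little about how stable the signs are. With single arrays left out, siGFP against untreated ran from −0.05 to 0.25 for Nodal, −0.05 to 0.15 for Smad7, −0.25 to 0.35 for Acvr1c, −1.85 to 0.05 for Inhbb and −0.05 to 0.35 for Smad6. siLin28a against untreated ran from −0.05 to 0.25 for Nodal, −0.25 to 0.15 for Cer1, −0.05 to 0.15 for Gdf3 and −0.05 to 0.55 for Acvr1c. siLin28a against siGFP ran from −1.65 to 0.25 for Inhbb. From a main value of 0.00 it ran from −0.15 to 0.15 for Nodal and from −0.10 to 0.10 for Lefty1. Tgfbr1, at 0.00 for siGFP against untreated, ran from −0.10 to 0.10 there. The cause was not tested. A lone array of a group was assumed to vary like the other groups. Rows with no residual variance had no test in the least squares fit, rows with a mean under 6 were absent from the filtered fit, and background correction and array batches were not varied, since only summarised values were used.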
